A study of Homo sapiens with 6 samples.

Results

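Collagens, laminins and integrins were examined in Hep3B cells, a human hepatocellular carcinoma line, after transfection with siRNA against SMARCA4. The genes were taken by symbol from the deposited expression table: collagen chains (COL), laminin chains (LAMA, LAMB and LAMC) and integrin subunits (ITGA and ITGB). The genes described number 81 of 57773 in the table, namely 44 collagen genes, 11 laminin genes and 26 integrin genes. ITGB3 had 2 rows, of which the one with the higher mean was used. The RNA-seq libraries, made from total RNA, were 3 labelled si-SMARCA4 and 3 labelled si-Cont, a control siRNA. All 6 libraries came from the same cell line under the same culture conditions, and the labels give no siRNA sequence, dose or harvest time. SMARCA4, also named BRG1, encodes a catalytic subunit of SWI/SNF chromatin remodellers.

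Collagens and laminins are secreted proteins of the extracellular matrix. Collagen chains wind into a triple helix, and an alpha, a beta and a gamma chain join into a laminin trimer; collagen IV and laminin networks are the scaffold of basement membranes. Integrins are the cell surface receptors that bind this matrix, each built from an alpha and a beta subunit, where the alpha subunit largely sets the ligand. In liver, hepatocytes rest on a sparse matrix without a regular basement membrane, and stellate cells are the main source of fibrillar collagen.

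SMARCA4 (ENSG00000127616) stood at 3.80, 3.78 and 4.01 FPKM in si-SMARCA4 and at 15.7, 19.5 and 16.6 FPKM in si-Cont, which is 22.3% of the si-Cont mean (log2 change -1.91, limma adjusted p = 1.63e-08). FPKM are reads scaled to gene length and to a total per library, so levels of different genes can be set side by side. Reads over genes came to 19492957 to 21731677 per si-SMARCA4 library and 19084308 to 22719014 per si-Cont library. As a share of the total used for scaling, they were 62.8% to 64.3% in si-SMARCA4 and 65.5% to 69.5% in si-Cont, without overlap. FPKM summed over all genes was also lower in every si-SMARCA4 library, at 159085 to 163933, against 167786 to 182293 in si-Cont. In a principal component analysis the groups parted along the first axis (83.8% of the variance). On the second axis (8.58%) si-Cont replicate 2 stood apart, at -11.0, with the other 5 libraries between -1.83 and 5.70. In the limma fit described below, 33.6% of all genes tested were called lower and 22.4% higher in si-SMARCA4. Of 9 hepatocyte and hepatoma markers, 5 were lower and 2 higher. Albumin (ALB) averaged 1425 FPKM in si-SMARCA4 and 2269 FPKM in si-Cont. AFP (log2 change -0.87) and APOB (-0.64) were also lower, TTR (0.59) and SERPINA1 (0.33) were higher, and TF and KRT18 were not called. Of 5 cholangiocyte markers 3 were tested and 1 was lower, and lists this short cannot be set against the shares of all genes. All 8 endothelial markers were under 1 FPKM, with VWF, KDR and CDH5 at 0 in every library. In bulk RNA, fewer cells that express a gene and less RNA per cell cannot be told apart.

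Most of the matrix genes tested were lower in si-SMARCA4, while the few integrins that passed were mostly higher. Of the 81 genes, 23 had a mean of at least 1 FPKM over the 6 libraries and were tested together with all 11123 genes that met this minimum, by limma on log2(FPKM + 1) with Benjamini-Hochberg adjustment and a threshold of 0.05 on the adjusted p. Over all genes tested 56.0% were called, 22.4% as higher and 33.6% as lower in si-SMARCA4. Among 13 matrix genes 11 were called, 2 higher and 9 lower. Among 10 integrins 4 were called, 3 higher and 1 lower. The median log2 change was -0.30 for the matrix genes and 0.02 for the integrins, against -0.04 for all genes tested. The median size of the change, whatever its sign, was 0.38 for the matrix genes and 0.12 for the integrins, against 0.17 for all genes tested. A test of the matrix genes against the integrins as lists was not run. Without si-Cont replicate 2 the counts were 11 matrix genes, 2 higher and 9 lower, and 5 integrins, 3 higher and 2 lower. Over all 11123 genes, 2621 were then called higher and 4520 lower, against 2494 higher and 3733 lower with all libraries. Upper-quartile scaling moved the split over all genes from 40.1% to 52.2% higher among those called. The matrix genes then stood at 3 higher and 9 lower and the integrins at 4 higher and 1 lower. LAMC1 and ITGB1 were still called lower under this scaling, with smaller log2 changes of -0.15 and -0.14. COL26A1 reached the mean of 1 FPKM only through its si-Cont libraries, so it had to differ to be tested. The labels do not say whether replicates were separate cultures, so the p-values measure the spread between these libraries alone.

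**Figure D1:**
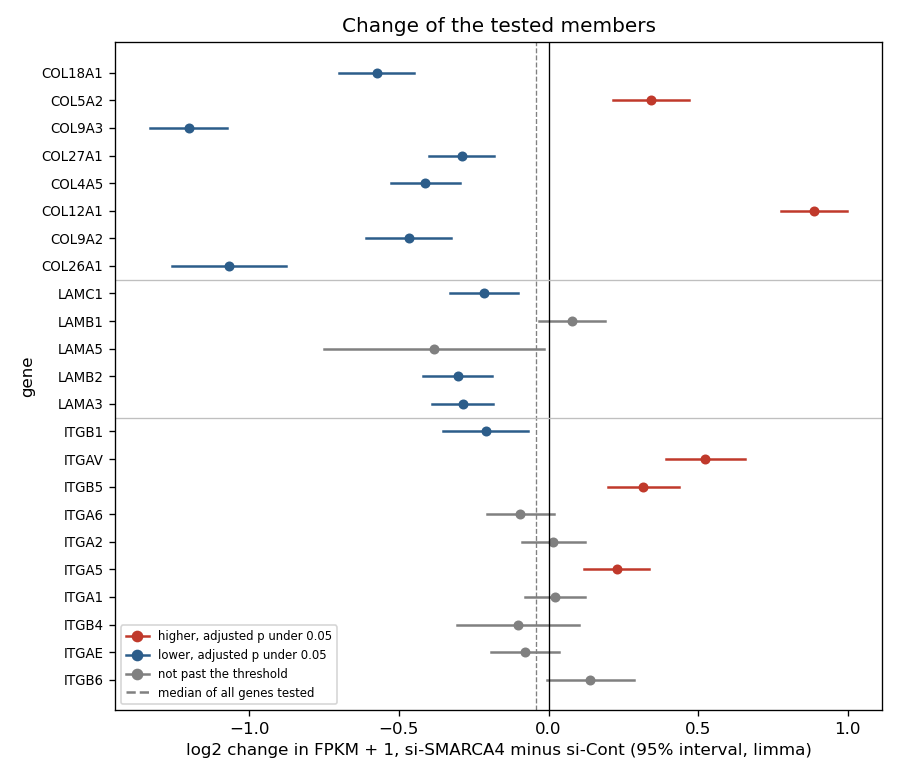
Log2 change in FPKM + 1 (si-SMARCA4 minus si-Cont, x axis) of the 23 genes tested (y axis), grouped as collagens, laminins and integrins, with 95% limma intervals; the dashed line is the median of all genes tested, -0.04. Of the collagens 2 lie to the right of 0 and 6 to the left with intervals clear of it, while the intervals of 6 of the 10 integrins reach or cross 0.

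All 8 collagens tested were called, 6 lower and 2 higher, and their groups did not overlap in any of the 8. COL26A1, one of the lower genes, met the minimum only through si-Cont, so its part in these counts is not a result. Over all genes tested, 62.3% had groups that did not overlap. Summed over the 44 collagen genes, FPKM came to 48.0, 45.8 and 46.7 in si-SMARCA4, against 58.4, 60.0 and 62.5 in si-Cont. COL18A1 (ENSG00000182871), a basement membrane collagen whose C-terminal fragment is endostatin, was the most abundant collagen in both groups. It had 16.7, 15.7 and 16.1 FPKM in si-SMARCA4, against 22.8, 25.9 and 25.1 FPKM in si-Cont. Every si-SMARCA4 library lay below every si-Cont library, at 65.7% of the si-Cont mean (log2 change -0.58, SE 0.057, limma adjusted p = 1.27e-05). Its exons overlap those of SLC19A1 on the opposite strand by 1401 bases in GENCODE v29; SLC19A1 stood at a mean of 1.96 FPKM, and whether the counting used strand is not given in the sources used here. The exact permutation p was 0.1 for each called gene whose groups did not overlap, the smallest that 3 against 3 libraries can give.

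The fibril-associated collagens, which sit on the surface of larger fibrils, moved in both directions. COL9A3 (ENSG00000092758), a chain of collagen IX known from cartilage, had 2.86, 2.62 and 2.95 FPKM in si-SMARCA4, against 7.62, 7.28 and 8.42 FPKM in si-Cont. The groups lay far apart, at 36.1% of si-Cont (log2 change -1.20, SE 0.059, limma adjusted p = 8.65e-08), and 0.620% of all genes tested changed by as much in either direction. COL9A2, a second chain of the same trimer, had 1.20, 1.26 and 1.21 FPKM in si-SMARCA4, against 1.94, 1.93 and 2.38 FPKM in si-Cont (log2 change -0.47, limma adjusted p = 0.000128). Both chains were thus lower in every si-SMARCA4 library. The ratio of COL9A3 to COL9A2 was 2.39, 2.08 and 2.43 in si-SMARCA4, against 3.94, 3.78 and 3.54 in si-Cont, so COL9A3 was reduced by more than its partner. The remaining chain, COL9A1, had 16 reads over the 3 si-SMARCA4 libraries and 8 over the 3 si-Cont libraries.

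COL12A1 (ENSG00000111799) went the other way. It encodes collagen XII, which binds collagen I fibrils in tendon and other dense tissue, and had 2.90, 2.87 and 2.83 FPKM in si-SMARCA4, against 1.02, 1.16 and 1.09 FPKM in si-Cont. The libraries within a group were close together and the mean was 2.63-fold higher in si-SMARCA4 (log2 change 0.89, SE 0.050, limma adjusted p = 2.46e-07). For each FPKM of COL18A1 there were 0.177 FPKM of COL12A1 in si-SMARCA4, against 0.0443 in si-Cont.

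Of the fibril-forming collagens, COL5A2 rose and COL27A1 fell. COL5A2, a chain of collagen V that takes part in starting collagen I fibrils, averaged 14.4 ± 0.405 FPKM in si-SMARCA4 and 11.2 ± 0.801 FPKM in si-Cont (SD, n = 3 each; log2 change 0.34, limma adjusted p = 0.000467). Its usual partner COL5A1 had 1 read in each group over all libraries, and COL5A3 had 16 reads in si-SMARCA4 and 6 in si-Cont. COL27A1, known from cartilage, averaged 2.60 ± 0.104 FPKM in si-SMARCA4 and 3.40 ± 0.146 FPKM in si-Cont (SD, n = 3 each; log2 change -0.29, limma adjusted p = 0.000535). COL26A1, a collagen known from testis and ovary, had 0.365, 0.321 and 0.633 FPKM in si-SMARCA4, against 2.06, 1.77 and 2.20 FPKM in si-Cont. That is 21.9% of the si-Cont mean (log2 change -1.07, limma adjusted p = 2.72e-06), on 33 to 61 reads per si-SMARCA4 library and 163 to 218 per si-Cont library. COL26A1 entered the fit only through its si-Cont libraries, so this p is no support for the difference.

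The chains of collagen I and III, the fibrillar collagens that stellate cells and fibroblasts make, were scarce. COL1A1 stood at 0.206 FPKM in si-SMARCA4 and 0.498 FPKM in si-Cont, and its groups did not overlap. COL1A2 stood at 0.0274 FPKM in si-SMARCA4 and 0.0229 FPKM in si-Cont, and COL3A1 at 0.0106 FPKM in si-SMARCA4 and 0.0159 FPKM in si-Cont. Of 12 fibroblast and stellate cell markers 3 reached a mean of 1 FPKM: LUM was higher, at 11.4 FPKM in si-SMARCA4 and 7.25 FPKM in si-Cont, and FBLN1 and PDGFRA were lower. The other 9 were below that level, among them DCN at 0.00514 FPKM in si-SMARCA4 and 0.0133 FPKM in si-Cont, and POSTN and PDPN at 0 in all libraries. Summed over the list, these markers came to 24.2 to 25.1 FPKM in si-SMARCA4 and 24.4 to 26.0 FPKM in si-Cont; their part in the collagen values was not tested.

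**Figure D2:**
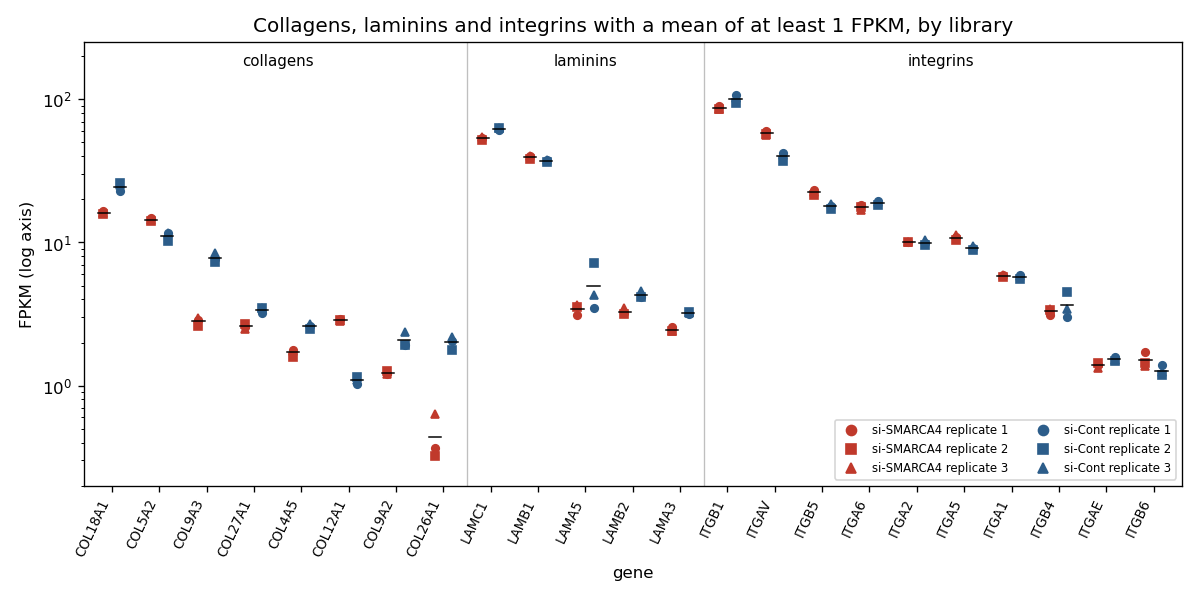
FPKM on a log axis of the 23 genes with a mean of at least 1 FPKM, by library (si-SMARCA4 in red, left; si-Cont in blue, right; black bars are group means). The groups stand clear of each other in all 8 collagens, while LAMA5 and ITGB4 show si-Cont replicate 2 above the other libraries, at 7.18 and 4.48 FPKM.

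The 6 genes of collagen IV, the network collagen of basement membranes, lie as 3 pairs that are transcribed away from each other. The mean of each of the 6 was lower in si-SMARCA4, over levels that range from under 0.1 to over 1 FPKM. Only COL4A5 reached the minimum for the limma fit: it had 1.78, 1.59 and 1.76 FPKM in si-SMARCA4, against 2.60, 2.50 and 2.71 FPKM in si-Cont (log2 change -0.41, SE 0.052, limma adjusted p = 7.04e-05). Of the other 5, the 4 with enough reads were followed on whole reads, which the FPKM steps give back, by limma voom over the 13892 genes with a mean of at least 20 reads per library, a fit chosen after seeing the data. In that fit 53.5% of genes were called, 22.5% as higher and 31.0% as lower.

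The letters at the paired start sites are shown for comparison of the 3 pairs. They are RefSeq sequence on GRCh38.p14, plus strand, limited to what lies in the promoter windows of both genes (250 bases before to 50 after each start). Capitals mark CCAAT and GGGCGG on either strand, the letters of the CCAAT box and of the GC box. The windows are chr13:110307108-110307333 (COL4A1 and COL4A2), chr2:227164374-227164455 (COL4A4 and COL4A3) and chrX:108439588-108439708 (COL4A6 and COL4A5).
COL4A1 and COL4A2: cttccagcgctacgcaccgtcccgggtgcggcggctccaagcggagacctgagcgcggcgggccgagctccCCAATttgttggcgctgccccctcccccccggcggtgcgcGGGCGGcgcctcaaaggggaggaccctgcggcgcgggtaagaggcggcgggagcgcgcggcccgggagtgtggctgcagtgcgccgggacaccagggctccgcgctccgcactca
COL4A4 and COL4A3: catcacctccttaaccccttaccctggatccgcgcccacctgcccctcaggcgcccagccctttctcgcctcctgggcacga
COL4A6 and COL4A5: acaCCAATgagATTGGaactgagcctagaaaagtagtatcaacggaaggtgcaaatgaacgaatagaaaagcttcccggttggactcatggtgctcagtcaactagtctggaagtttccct
The COL4A1 and COL4A2 window holds 1 CCAAT and 1 GGGCGG, the COL4A6 and COL4A5 window holds 2 CCAAT, 1 on each strand, and the COL4A4 and COL4A3 window holds neither. Of 35116 promoter windows of 300 bases in the same table, 34.6% hold CCAAT and 45.0% hold GGGCGG. The shared windows are shorter, at 226, 82 and 121 bases in the order printed, so these shares are not for windows of their length. In full windows COL4A3 and COL4A6 also hold GGGCGG. A match is a description of the letters, not of binding.

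COL4A1 had 0.158, 0.160 and 0.195 FPKM in si-SMARCA4, against 0.478, 0.396 and 0.400 FPKM in si-Cont. Its partner COL4A2, whose start lies 127 bases away, had 0.0637, 0.0780 and 0.0913 FPKM in si-SMARCA4, against 0.131, 0.0958 and 0.101 FPKM in si-Cont. COL4A1 was lower without overlap on 41 to 47 reads per si-SMARCA4 library and 91 to 124 per si-Cont library (voom log2 change -1.31, adjusted p = 6.78e-06). COL4A2 also did not overlap, but its change did not pass (voom log2 change -0.49, 95% interval -1.01 to 0.02, adjusted p = 0.0987), on 17 to 34 reads per library. COL4A4 had 0.105, 0.0963 and 0.0761 FPKM in si-SMARCA4, against 0.144, 0.194 and 0.151 FPKM in si-Cont (voom log2 change -0.80, adjusted p = 0.00430). Its partner COL4A3, with starts 419 bases apart, had 0.0486, 0.0472 and 0.0538 FPKM in si-SMARCA4, against 0.0665, 0.0527 and 0.0767 FPKM in si-Cont; the groups overlapped, and with 14 to 22 reads per library it was below the minimum of that fit. COL4A6, which starts 380 bases from COL4A5, had 0.0625, 0.0866 and 0.0757 FPKM in si-SMARCA4, against 0.140, 0.145 and 0.118 FPKM in si-Cont. Its groups did not overlap (voom log2 change -0.84, adjusted p = 0.00361). In the same voom fit the log2 change of COL4A5 was -0.61. The pairs were unequal in level: COL4A5 averaged 1.71 FPKM in si-SMARCA4 and 2.61 FPKM in si-Cont, and COL4A6 averaged 0.0749 FPKM in si-SMARCA4 and 0.135 FPKM in si-Cont.

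Laminin chains made up more of the matrix transcripts than collagens, with 104 FPKM in si-SMARCA4 and 113 FPKM in si-Cont summed over the 11 genes. Of 5 tested, 3 were lower and 2 did not pass. LAMC1, the gamma 1 chain found in most laminins, had 53.9, 52.2 and 55.0 FPKM in si-SMARCA4, against 61.3, 62.7 and 63.5 FPKM in si-Cont (log2 change -0.22, limma adjusted p = 0.00450). LAMB2, the beta 2 chain known from the kidney filter and the neuromuscular junction, had 3.20, 3.18 and 3.46 FPKM in si-SMARCA4, against 4.15, 4.15 and 4.56 FPKM in si-Cont (log2 change -0.30, limma adjusted p = 0.000528). Both were lower in all si-SMARCA4 libraries. LAMB1, the beta chain that commonly pairs with gamma 1, had 40.1, 38.2 and 40 FPKM in si-SMARCA4, against 37.7, 36.7 and 37.6 FPKM in si-Cont, and did not pass (log2 change 0.08, 95% interval -0.03 to 0.19, limma adjusted p = 0.208). Its groups did not overlap, and median-ratio and upper-quartile scaling called it higher, at log2 changes of 0.13 and 0.15. The ratio of LAMB1 to LAMC1 was 0.744, 0.732 and 0.727 in si-SMARCA4, against 0.615, 0.585 and 0.592 in si-Cont.

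The value of LAMA5, the alpha 5 chain of adult basement membranes, depended on 1 library. It had 3.12, 3.54 and 3.68 FPKM in si-SMARCA4, against 3.50, 7.18 and 4.29 FPKM in si-Cont, with si-Cont replicate 2 far above the rest and the groups overlapping. The log2 change was -0.38 (95% interval -0.75 to -0.02, limma adjusted p = 0.0717), and -0.13 without si-Cont replicate 2 (adjusted p = 0.143). It was called lower with replicate number as a block (adjusted p = 0.0131), by voom on the same genes (0.0275) and without si-Cont replicate 1 (0.00782). LAMA5 shares 244 exon bases with ADRM1 on the opposite strand, a gene at 54.5 FPKM.

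The alpha 3 and beta 3 chains, which join in a laminin of epithelial anchoring structures, did not move together. LAMA3, the alpha 3 chain, had 2.55, 2.40 and 2.42 FPKM in si-SMARCA4, against 3.17, 3.25 and 3.23 FPKM in si-Cont, and fell (log2 change -0.29, SE 0.046, limma adjusted p = 0.000368). LAMB3, the beta 3 chain, lay just under the minimum of the limma fit, with 1.26, 1.15 and 1.34 FPKM in si-SMARCA4, against 0.479, 0.527 and 0.597 FPKM in si-Cont. LAMB3 was 2.34-fold higher on 176 to 199 reads per si-SMARCA4 library and 72 to 88 per si-Cont library (voom log2 change 1.22, adjusted p = 1.14e-06). In the same voom fit the log2 change of LAMA3 was -0.39. For each FPKM of LAMA3 there were thus 0.491, 0.481 and 0.554 FPKM of LAMB3 in si-SMARCA4, against 0.151, 0.162 and 0.185 in si-Cont. Beside the more abundant beta 1 chain, the ratio of LAMB3 to LAMB1 stood at 0.0317 in si-SMARCA4 and 0.0143 in si-Cont.

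LAMA3 and LAMB3 are shown because both windows hold TGANTCA, the letters bound by AP-1 factors, although the genes moved in opposite directions. The RefSeq windows on GRCh38.p14 are chr18:23872770-23873069, plus strand (LAMA3), and chr1:209651325-209651624, minus strand (LAMB3), each from 250 bases before to 50 after a start, with TGANTCA in capitals.
LAMA3: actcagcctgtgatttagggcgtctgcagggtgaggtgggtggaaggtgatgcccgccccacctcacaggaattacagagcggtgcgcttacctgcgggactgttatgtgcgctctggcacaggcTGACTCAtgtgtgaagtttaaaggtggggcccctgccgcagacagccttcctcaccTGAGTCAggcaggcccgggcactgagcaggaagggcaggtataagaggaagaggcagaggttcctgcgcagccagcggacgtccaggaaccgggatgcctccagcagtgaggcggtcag
LAMB3: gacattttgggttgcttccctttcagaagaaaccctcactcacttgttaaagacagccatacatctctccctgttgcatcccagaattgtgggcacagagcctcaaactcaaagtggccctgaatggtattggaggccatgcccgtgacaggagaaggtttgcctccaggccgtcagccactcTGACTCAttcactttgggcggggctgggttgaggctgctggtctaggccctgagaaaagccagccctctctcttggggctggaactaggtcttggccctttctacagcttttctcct
LAMA3 holds 2 matches and the LAMB3 window holds 1, while the other 2 LAMB3 windows in the table hold none. Promoter windows were found for 58 of the 81 genes, 77 windows in all, of which 4 (5.19%) hold TGANTCA, those of COL10A1, ITGA5, LAMA3 and LAMB3. That is below the 7.71% of all 35116 windows. CCAAT was in 26.0% and GGGCGG in 55.8% of the 77 windows, against 34.6% and 45.0% of all windows.

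**Figure D3:**
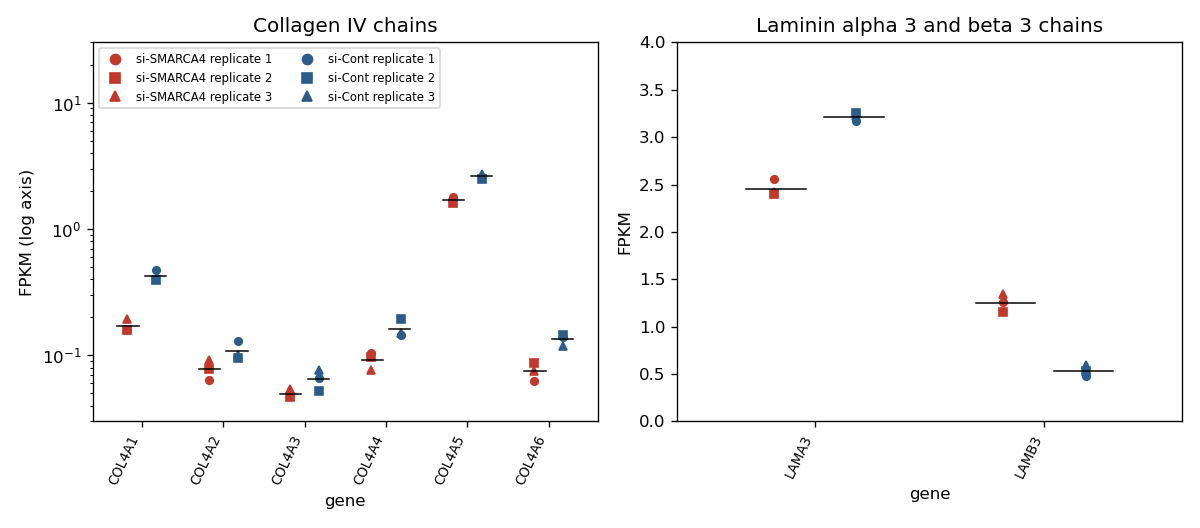
FPKM by library of the 6 collagen IV genes (left, log axis) and of the laminin chains LAMA3 and LAMB3 (right, linear axis), si-SMARCA4 in red and si-Cont in blue, with black bars for group means. The si-SMARCA4 mean is below the si-Cont mean in all 6 collagen IV genes, while LAMB3 is above it and LAMA3 below.

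Integrins were more abundant than the matrix genes, with 229, 217 and 218 FPKM in si-SMARCA4, against 220, 199.6 and 215 FPKM in si-Cont, summed over the 26 genes, and these sums overlapped. Alpha subunits came to 109.7, 105 and 105 FPKM in si-SMARCA4, against 89.5, 82.8 and 89.1 FPKM in si-Cont, without overlap. Beta subunits came to 119, 112 and 113 FPKM in si-SMARCA4, against 130.0, 117 and 126 FPKM in si-Cont, with overlap. The 2 tested alpha subunits for ligands with an RGD sequence, such as fibronectin and vitronectin, rose. The 2 tested for collagen and the 1 tested for laminin did not pass, and these are too few genes to compare ligands. By voom on whole reads 1 of 3 laminin-binding subunits was higher, ITGA3, at 0.893 FPKM in si-SMARCA4 and 0.461 FPKM in si-Cont. A rise was thus not particular to the RGD-binding subunits. ITGAV (ENSG00000138448) had 60.4, 56.9 and 56.6 FPKM in si-SMARCA4, against 41.9, 37.3 and 40.8 FPKM in si-Cont. Every si-SMARCA4 library was above every si-Cont library, 1.45-fold in the mean (log2 change 0.52, SE 0.060, limma adjusted p = 3.30e-05). ITGA5, the alpha subunit of the fibronectin receptor, had 10.8, 10.5 and 11.2 FPKM in si-SMARCA4, against 9.09, 8.80 and 9.44 FPKM in si-Cont (log2 change 0.23, SE 0.049, limma adjusted p = 0.00236).

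For the collagen-binding alpha subunits the group means of the 2 tested genes differed by less than the SD in si-Cont, though by more than the SD in si-SMARCA4. ITGA1 averaged 5.87 ± 0.0843 FPKM in si-SMARCA4 and 5.77 ± 0.209 FPKM in si-Cont (log2 change 0.02, 95% interval -0.08 to 0.12). ITGA2 averaged 10.1 ± 0.0472 FPKM in si-SMARCA4 and 9.96 ± 0.423 FPKM in si-Cont (log2 change 0.02, 95% interval -0.09 to 0.12; SD, n = 3 each). These intervals bound the change of both genes to 0.12 on the log2(FPKM + 1) scale. ITGA1 shares 475 exon bases with PELO, annotated on the same strand, at 10.3 FPKM. ITGA6, a laminin-binding subunit, averaged 17.6 ± 0.666 FPKM in si-SMARCA4 and 18.9 ± 0.600 FPKM in si-Cont and did not pass (log2 change -0.09, limma adjusted p = 0.136), although it was called lower without si-Cont replicate 2 (adjusted p = 0.0247). ITGAE, the alpha subunit that binds E-cadherin, averaged 1.39 ± 0.0572 FPKM in si-SMARCA4 and 1.53 ± 0.0411 FPKM in si-Cont (limma adjusted p = 0.224), and shares 427 exon bases with GSG2 on the opposite strand, at 5.29 FPKM.

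Among beta subunits, ITGB5 rose, ITGB1 was lower with a call that depended on single libraries, and ITGB4 and ITGB6 did not pass. ITGB1 (ENSG00000150093), the common partner of most matrix-binding alpha subunits and the most abundant of the 81 genes, had 90.2, 85.5 and 85.5 FPKM in si-SMARCA4, against 107, 93.7 and 102 FPKM in si-Cont. The groups did not overlap (log2 change -0.21, SE 0.064, limma adjusted p = 0.0160), but the call was lost without si-SMARCA4 replicate 2 (adjusted p = 0.0698), si-SMARCA4 replicate 3 (0.0708) or si-Cont replicate 1 (0.0689). The log2 change itself stayed between -0.26 and -0.17 whichever library was left out, and with replicate number as a block the adjusted p was 0.00300. ITGB5, which pairs with ITGAV, had 23.4, 21.5 and 22.5 FPKM in si-SMARCA4, against 17.9, 17.0 and 18.6 FPKM in si-Cont (log2 change 0.32, SE 0.054, limma adjusted p = 0.000533). ITGB6, another partner of ITGAV, had 1.71, 1.43 and 1.37 FPKM in si-SMARCA4, against 1.39, 1.18 and 1.24 FPKM in si-Cont. Its groups overlapped and it did not pass (log2 change 0.14, limma adjusted p = 0.0930), but it did with replicate number as a block (adjusted p = 0.0494) and with median-ratio (0.0406) or upper-quartile scaling (0.0325). Without si-SMARCA4 replicate 1 the log2 change of ITGB6 was 0.08 (adjusted p = 0.347). ITGB4, the partner of ITGA6 in hemidesmosomes, averaged 3.30 ± 0.159 FPKM in si-SMARCA4 and 3.65 ± 0.742 FPKM in si-Cont (SD, n = 3 each; limma adjusted p = 0.372), with si-Cont replicate 2 at 4.48 FPKM. The ratio of ITGAV to ITGB1 was 0.670, 0.665 and 0.661 in si-SMARCA4, against 0.391, 0.399 and 0.399 in si-Cont, and its spread within a group was small beside the gap. The ratio of ITGAV to ITGB5 was 2.58 ± 0.0658 in si-SMARCA4 and 2.24 ± 0.0880 in si-Cont, so it was 1.15 times as high in si-SMARCA4 as in si-Cont, and that of ITGAV to ITGB1 was 1.68 times as high.

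The other 58 genes lay under a mean of 1 FPKM: 21 between 0.1 and 1 FPKM, 31 above 0 but under 0.1 FPKM, and 6 at 0 in all libraries (COL6A5, COL8A1, COL13A1, COL22A1, COL23A1 and ITGAD). With a mean of at least 20 reads, 15 of the low matrix genes and 8 of the low integrins could be followed by voom. Of the 15 matrix genes 4 were higher and 7 lower, and of the 8 integrins 5 were higher and 1 lower, where 22.5% and 31.0% of all genes in that fit were. Nothing is read from these counts, since ITGA10, ITGAM and ITGB8 averaged under 20 reads in si-Cont and COL4A2 in si-SMARCA4, so that each of them was tested only through the group where it is higher. ITGA10, a collagen-binding alpha subunit known from cartilage, had 0.533, 0.404 and 0.368 FPKM in si-SMARCA4, against 0.101, 0.0326 and 0.0905 FPKM in si-Cont, on 71 to 114 reads per si-SMARCA4 library and 6 to 21 per si-Cont library (voom log2 change 2.62, adjusted p = 3.63e-06). ITGAM, the alpha subunit of a myeloid complement receptor, had 0.318, 0.315 and 0.266 FPKM in si-SMARCA4, against 0.0750, 0.0424 and 0.0617 FPKM in si-Cont (voom log2 change 2.30, adjusted p = 1.74e-06). These 2 genes, chosen for their size of change after it was seen and tested only through their si-SMARCA4 libraries, remained minor transcripts beside ITGA2 at 10.1 FPKM. The partner of ITGAM, ITGB2, had 2 reads in si-SMARCA4 and 5 in si-Cont over all libraries, and PTPRC, a leukocyte marker, stood at 0.0395 FPKM in si-SMARCA4 and 0.00750 FPKM in si-Cont, on 33 reads in si-SMARCA4 and 6 in si-Cont. Of the abundant immune markers CD68 was lower, at 10.6 FPKM in si-SMARCA4 and 17.2 FPKM in si-Cont (log2 change -0.64), and LYZ was not called, at 16.0 FPKM in si-SMARCA4 and 16.4 FPKM in si-Cont. CSF1R had 14 reads in si-SMARCA4 and 26 in si-Cont. The 8 immune markers summed to 26.4 to 27.2 FPKM in si-SMARCA4 and 30.7 to 36.6 FPKM in si-Cont, with 6 of them under 1 FPKM and MS4A1 at 0, and their part in the ITGAM value was not tested.

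ITGA3, a laminin-binding subunit, averaged 0.893 FPKM in si-SMARCA4 and 0.461 FPKM in si-Cont (voom log2 change 0.96, adjusted p = 5.32e-06). ITGB8, a partner of ITGAV that likewise met the minimum only through si-SMARCA4, averaged 0.105 FPKM in si-SMARCA4 and 0.0326 FPKM in si-Cont (voom log2 change 1.65). ITGA4, a subunit known from leukocytes, averaged 0.124 FPKM in si-SMARCA4 and 0.0850 FPKM in si-Cont (voom log2 change 0.53, adjusted p = 0.0470). ITGAL, a leukocyte subunit, was the low integrin that fell, at 0.414 FPKM in si-SMARCA4 and 0.700 FPKM in si-Cont (voom log2 change -0.76). ITGB3, at 0.385 FPKM in si-SMARCA4 and 0.386 FPKM in si-Cont, and ITGA7, at 0.388 FPKM in si-SMARCA4 and 0.342 FPKM in si-Cont, did not pass. Among low fibril-associated collagens COL14A1 fell, at 0.671 FPKM in si-SMARCA4 and 1.02 FPKM in si-Cont (voom log2 change -0.60), as did COL19A1, at 0.562 FPKM in si-SMARCA4 and 0.849 FPKM in si-Cont (-0.59). COL21A1, of the same class, rose (0.258 FPKM in si-SMARCA4 and 0.108 FPKM in si-Cont, voom log2 change 1.25). The low fibril-forming collagens split: COL24A1 rose (0.190 FPKM in si-SMARCA4 and 0.0711 FPKM in si-Cont, voom log2 change 1.36), COL11A2 rose (0.190 FPKM in si-SMARCA4 and 0.0989 FPKM in si-Cont, 0.96) and COL1A1 fell (-1.20). COL24A1, COL11A2 and ITGA4 averaged under 0.1 FPKM in si-Cont, so they reached the mean of 0.1 FPKM needed to be named only through si-SMARCA4. COL8A2, a short-chain collagen of the cornea, fell (0.226 FPKM in si-SMARCA4 and 0.334 FPKM in si-Cont, -0.57). COL7A1, the anchoring fibril collagen, stood at 0.669 FPKM in si-SMARCA4 and 0.701 FPKM in si-Cont. COL10A1, a collagen of growth plate cartilage, stood at 0.676 FPKM in si-SMARCA4 and 0.592 FPKM in si-Cont, and LAMA4, a laminin chain of vessels, at 0.358 FPKM in si-SMARCA4 and 0.350 FPKM in si-Cont. These 3 genes had overlapping groups and did not pass.

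**Figure D4:**
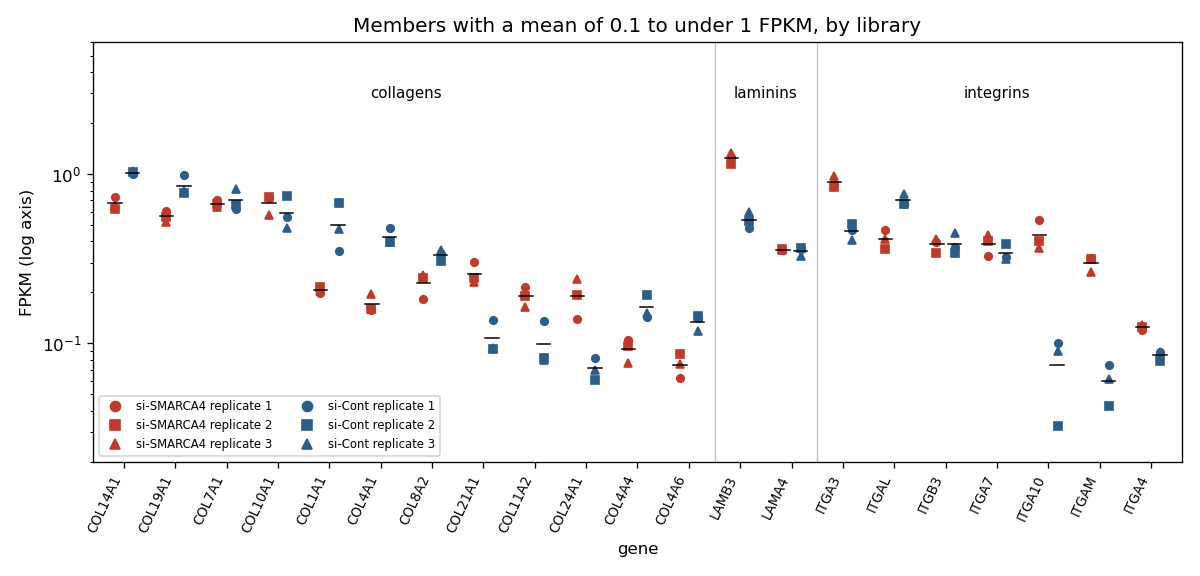
FPKM on a log axis of the 21 genes with a mean of 0.1 to under 1 FPKM, by library (si-SMARCA4 in red, left; si-Cont in blue, right; black bars are group means). ITGA10 and ITGAM stand more than 5-fold higher in the si-SMARCA4 mean, COL1A1 and COL4A1 stand lower, and COL7A1, LAMA4 and ITGB3 overlap.

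A short sequence, TGTCCA, followed by A or preceded by C, had earlier been noted in the 3′ UTRs of genes lower in these si-SMARCA4 libraries. It was looked up in the longest annotated 3′ UTR of each gene tested (GENCODE v29 on GRCh38), and the sites are shown because they occur in genes that moved in either direction. The 7-base form was in 6 of the 23 genes: COL26A1, COL27A1 and LAMC1 were lower, COL5A2 and ITGA5 were higher, and ITGA1 was not called. Over all genes searched it was in 20.5%, of which 44.7% were lower and 17.3% higher. Of the 63.8% of genes without TGTCCA, 30.6% were lower and 24.7% higher, and 14 of the 23 genes were among them, 6 lower and 3 higher. With 6 genes, the counts cannot be set against these shares. COL26A1 met the minimum of 1 FPKM only through si-Cont, so its place among the lower genes is not a result. The sites in 2 genes that were lower and 2 that were higher are printed 5′ to 3′ along the transcript, with the match in capitals, at chr7:101557843-101557864 on the plus strand (COL26A1), chr1:183142891-183142912 on the plus strand (LAMC1), chr2:189033191-189033212 on the minus strand (COL5A2) and chr12:54395910-54395931 on the minus strand (ITGA5).
COL26A1: actggccCTGTCCAgggaactt
LAMC1: tctgctgCTGTCCAtgactgtc
COL5A2: caaacataTGTCCAAggactct
ITGA5: ggacttcCTGTCCAgctccaac
Among the genes with the largest changes, COL9A3, COL12A1 and ITGAV hold no TGTCCA, while COL26A1 holds the 7-base form. COL18A1, also with a large change and lower, holds the 6 bases alone, as do ITGA2 and ITGB6, which were not called.

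Genes that make, cut or bind the matrix alongside these chains moved in both directions. Of 28 enzymes and factors of collagen maturation 17 were tested, with 9 higher, 7 lower and 1 not called. P4HB, a subunit of prolyl 4-hydroxylase, averaged 55.3 FPKM in si-SMARCA4 and 124 FPKM in si-Cont (log2 change -1.15), and BMP1, which trims procollagens, also fell (-0.39). LEPREL1, a prolyl hydroxylase, rose to 2.85 FPKM in si-SMARCA4, against 1.09 FPKM in si-Cont (0.88), and MIA3, which loads procollagen for export, rose by less (0.41). Of 22 other matrix proteins 13 were tested, with 3 higher and 5 lower. NID1, which links laminin to collagen IV, averaged 22.1 FPKM in si-SMARCA4 and 42.3 FPKM in si-Cont (log2 change -0.90), and TGFBI, a secreted protein that binds collagens and integrins, also fell (-0.44). NTN4, a laminin-related netrin, rose to 9.91 FPKM in si-SMARCA4, against 5.91 FPKM in si-Cont (0.66), and EFEMP1, a fibulin, rose as well (0.54).

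Of 20 matrix proteases and inhibitors 8 were tested, with 2 higher and 4 lower. The inhibitor TIMP1 was higher, at 5.70 FPKM in si-SMARCA4 and 3.15 FPKM in si-Cont (log2 change 0.69). Among membrane-type proteases MMP16 was higher (0.40) and MMP14 and MMP15 were lower (-0.47 each). Of 31 integrin adaptors and focal adhesion proteins 24 were tested, with 6 higher, 7 lower and 11 not called. The 4 with the smallest p were all lower: RAP1B, a GTPase that promotes integrin activation (-0.72), the adaptor CRKL (-0.60), the actin crosslinker ACTN1 (-0.52) and PTK2, the focal adhesion kinase (-0.46). Of 18 other matrix receptors 12 were tested, with 2 higher and 7 lower. The heparan sulfate proteoglycan SDC1 averaged 17.3 FPKM in si-SMARCA4 and 32.9 FPKM in si-Cont (log2 change -0.89), and the related SDC4 (-0.65) and SDC2 (-0.41) also fell. DDR1, a collagen receptor kinase, rose to 3.56 FPKM in si-SMARCA4, against 2.19 FPKM in si-Cont (0.52). The 20 genes named from these 5 lists were those with the smallest p in each list. That all 20 passed the limma threshold after Benjamini-Hochberg adjustment follows from this choice and is not set against other genes. Beside the counts of each list, 22.4% of all genes tested were higher and 33.6% lower.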

How the data were processed

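The authors deposited FPKM per gene for 6 libraries, and the submitters' processing notes name the hg19 build; no aligner, annotation or strandedness is named there. Groups and replicate numbers came from the sample titles. The 81 genes and all lists were chosen with earlier results of these data known; 1 further gene that meets the selection is not reported here. Genes with a mean of at least 1 FPKM (11123) were fitted on log2(FPKM + 1) with limma 3.58.1 in R 4.3.3 (trend, two-sided, Benjamini-Hochberg over all genes tested, threshold 0.05); the pseudocount of 1 draws in changes of low genes. Whole reads recovered from the FPKM steps (25119 of 25119 genes above 0, relative tolerance 1e-08) were fitted with limma voom against the FPKM denominators of 29138265 to 33822440. Reads are not independent molecules, so they bear on counting error only. Values in every library were given for the 5 largest log2 changes in each class and for the collagen IV pairs, with others as group means, and for each list the 4 tested genes with the smallest p. LAMB3, ITGA10 and ITGAM were added after seeing their values. Same-numbered libraries deviated together (correlations of 0.215, 0.181 and 0.162, against -0.171 to 0.00307 for other pairs). Deviations from a group mean sum to 0, which by itself draws the other correlations down. The labels do not say whether the numbers pair the samples. The main fit does not use the replicate number, and a fit with it as a block is given as an alternative. Scripts were tested on simulated data. Python 3.11.15 with pandas 2.3.3 was used.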

Additional observations from a re-analysis of the deposited data

How the results depend on the processing

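Other pseudocounts (0.1 and 5), summed rows of 1 symbol, both scalings, the replicate block and voom on the same genes left the counts of called matrix genes at 11 or 12 and of integrins at 4 or 5. Over all genes tested, these settings called 6219 to 6760 genes. Without a filter 25119 genes were tested, among them 50 matrix genes and 25 integrins. The calls were 2758 higher and 3583 lower over all genes, 22 matrix genes (6 higher, 16 lower) and 8 integrins (7 higher). With a minimum mean of 5 FPKM fewer genes were tested, 6120 in all and 5 matrix genes. The calls were then 3683 genes in all (1387 higher, 2296 lower) and 4 matrix genes (1 higher, 3 lower). Voom on genes with at least 20 reads, chosen after seeing the data, tested 28 matrix genes and 18 integrins. It called 23 matrix genes (6 higher, 17 lower) and 10 integrins (8 higher, 2 lower). Over all genes in that fit 22.5% were higher and 31.0% lower. Nothing is read from these counts, since ITGA10, ITGAM and ITGB8 met the minimum only through si-SMARCA4 and COL4A2 only through si-Cont. Leaving out 1 library at a time gave 0 to 2 lower integrins, and 11 or 12 matrix genes and 3 to 5 integrins in all. Over all 11123 genes the same omissions gave 2040 to 2621 higher and 3050 to 4520 lower. Of 357 comparisons of a tested gene with its value under an alternative, 340 kept direction and side of the threshold, 10 gained the call, 4 lost it and 3 reversed. The 3 reversals were genes not called, all without si-Cont replicate 2: ITGA2 at -0.0077, ITGA1 at -0.0042 and ITGB4 at 0.022. Over all single-library omissions ITGA2 ranged from -0.0077 to 0.047, ITGA1 from -0.0042 to 0.038 and ITGB4 from -0.20 to 0.022. The 4 losses were all of ITGB1, 3 of them without 1 library and the other without a filter (adjusted p = 0.0510). With the replicate block, LAMA5 (adjusted p = 0.0131) and ITGB6 (0.0494) were called, and it changed no other call among the 23 genes. A quasi-likelihood test on counts was not run, since the deposited values are FPKM. The cause of these shifts was not tested. Depth limits the 35 genes with under 20 reads per library on average, for which only levels were given.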
